A study of Mus musculus with 32 samples.

Results

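Immunoglobulin transcripts were followed through 32 RNA sequencing libraries from the lungs of 12 mice. The rows kept were those whose symbol names a heavy variable (Ighv), kappa variable (Igkv) or lambda variable (Iglv) segment, a heavy or light constant region or Jchain, and that held at least 10 counts in at least 4 of the 12 PolyA libraries. Of the 41687 rows of the table, 223 matched the symbols and 163 passed the count rule. These were 74 of 108 Ighv rows, 77 of 102 Igkv rows, all 3 Iglv rows, 6 of 7 heavy constant rows (Igha, Ighm, Ighg1, Ighg2b, Ighg2c and Ighg3), Igkc, Iglc2 and Jchain. Ighd, Iglc1 and Iglc3 were not analysed here.

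The rule reads the level in PolyA libraries, so that level is a description, and it does not read genotype. Of the 163 rows, 72 held at least 10 counts in all 12 PolyA libraries. Just inside the rule, with exactly 4 libraries, were Ighv1-77, Ighv11-2 and Igkv12-38, with highest PolyA counts of 67, 48 and 62. Just outside it, 7 rows reached 10 counts in 3 libraries, among them Ighv1-37 with a highest count of 30 and Igkv4-69 with 491. The rows kept held between 99.55% and 99.97% of the immunoglobulin counts of a library.

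The mice were C57b/6 wild types (WT) and Bmal1 knockouts (KO), aged 8 to 18 weeks, bred in-house and labelled female. Bmal1 encodes a core transcription factor of the body's daily clock. PolyA libraries (poly(A) selection) and RiboZero libraries (pull-down of ribosomal RNA) were made from 200 ng of RNA of each of the 12 mice, 6 per genotype. NoSelect libraries, with neither step, were made from 15 ng for mice 3 to 6 of each genotype, 4 per genotype, and 6 preparations per mouse were combined.

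Antibodies are made by B cells and, in bulk, by plasma cells. Each B cell joins 1 heavy variable segment to short D and J segments, and 1 light variable segment to a J segment. A constant region follows them in the RNA. Daughter cells keep the joined segments, so a plasma cell clone carries the same V segments on all of its antibody RNA. The constant region sets the isotype: Ighm encodes IgM, Igha encodes IgA, the main antibody of mucosal surfaces, and the Ighg genes encode IgG subclasses. Jchain links IgA into dimers and IgM into pentamers. In bulk tissue, fewer plasma cells and less antibody RNA per cell cannot be told apart.

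V segments within a family differ by few bases, which is shown here by the 4 Ighv14 rows, because different mice were led by different members of this family. The stretches below are the last 240 bases of the germline transcripts of GENCODE M21 (GRCm38), 5′ to 3′, on the minus strand of chromosome 12. The gene spans are chr12:114176438-114176867 for Ighv14-4, chr12:113931953-113932382 for Ighv14-1, chr12:113994469-113994898 for Ighv14-2 and chr12:114059845-114060321 for Ighv14-3. Capitals mark bases that differ from Ighv14-4, which number 7, 11 and 13 in the other members.
Ighv14-4: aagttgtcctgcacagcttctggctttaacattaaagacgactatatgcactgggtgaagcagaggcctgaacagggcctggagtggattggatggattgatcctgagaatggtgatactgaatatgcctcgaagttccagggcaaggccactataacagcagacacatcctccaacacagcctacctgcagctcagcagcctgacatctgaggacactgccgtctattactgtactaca
Ighv14-1: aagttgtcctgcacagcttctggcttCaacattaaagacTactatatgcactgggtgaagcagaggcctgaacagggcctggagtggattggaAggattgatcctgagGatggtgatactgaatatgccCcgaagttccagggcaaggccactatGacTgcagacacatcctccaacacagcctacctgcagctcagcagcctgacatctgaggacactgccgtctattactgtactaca
Ighv14-2: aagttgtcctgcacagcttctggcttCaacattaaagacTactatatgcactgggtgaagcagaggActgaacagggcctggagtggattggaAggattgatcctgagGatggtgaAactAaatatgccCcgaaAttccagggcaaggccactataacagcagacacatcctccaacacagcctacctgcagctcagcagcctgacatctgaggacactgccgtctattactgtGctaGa
Ighv14-3: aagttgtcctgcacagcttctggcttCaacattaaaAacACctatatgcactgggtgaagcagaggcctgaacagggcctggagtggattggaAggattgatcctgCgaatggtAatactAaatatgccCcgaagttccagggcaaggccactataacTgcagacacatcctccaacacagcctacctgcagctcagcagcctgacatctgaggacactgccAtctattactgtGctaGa
The kappa row that led mouse WT5, Igkv9-120 (chr6:68049983-68050456, plus strand), is shown with its relative Igkv9-124 (chr6:67942074-67942540, minus strand), and capitals mark 12 bases that differ from Igkv9-120.
Igkv9-120: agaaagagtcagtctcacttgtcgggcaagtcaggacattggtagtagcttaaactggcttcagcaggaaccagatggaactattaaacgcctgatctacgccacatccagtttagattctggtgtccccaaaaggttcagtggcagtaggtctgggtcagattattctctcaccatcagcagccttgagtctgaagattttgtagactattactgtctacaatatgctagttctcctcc
Igkv9-124: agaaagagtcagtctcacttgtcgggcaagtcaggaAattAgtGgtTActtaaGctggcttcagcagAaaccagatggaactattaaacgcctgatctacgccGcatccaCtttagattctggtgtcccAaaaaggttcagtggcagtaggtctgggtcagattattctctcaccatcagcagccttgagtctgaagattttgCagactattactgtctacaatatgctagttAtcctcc
A read from bases where no member of a set has a capital fits all of its members. Of all 31-base words in the transcripts of an Ighv row, a median of 46.8% also occurred in another gene, and of an Igkv row 50.8%. For Igha, Ighm, Igkc and Jchain the share was 0%, for Ighg2c 15.0% and for Iglc2 19.6%. For many single V rows it is therefore uncertain which relative produced a read, and no such word was shared for Igha, Ighm, Igkc and Jchain. At least 50% of words were shared for 33 of 74 Ighv rows and 39 of 77 Igkv rows. Of the V rows called between genotypes below, Igkv1-88 shared 0.3%, Ighv1-5 8.8%, Igkv4-50 18.6% and Ighv2-6 44.4%.

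The total count of a library was 29924271 to 41548759 in PolyA, 11638590 to 25801192 in RiboZero and 74979759 to 115059730 in NoSelect. In NoSelect, 71.2% to 75.0% of counts lay in rows of ribosomal or mitochondrial origin (392 rows, Lars2 and Gm42418 among them, called technical rows here). Arntl, the gene of Bmal1, was lower in KO without overlap in RiboZero (19.3 to 25.4 against 35.6 to 44.1 CPM outside the technical rows) and NoSelect. In PolyA the ranges overlapped (27.0 to 33.8 in KO, 32.5 to 39.4 in WT). The NoSelect library of KO6 carries a liver label, yet its Sftpc, a lung surfactant gene, stood at 6615 CPM outside the technical rows, the highest of its group, and Alb, the liver albumin gene, at 0.485. In all 3 libraries of KO6, Xist was at most 0.485 CPM and the Y-linked Ddx3y at least 64.4, against its female label, so the main genotype results are also given without it.

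Immunoglobulin RNA differed widely from mouse to mouse. In PolyA the share of immunoglobulin rows in counts outside the technical rows was lowest in KO4 (0.0566%) and highest in WT6 (1.45%), a 25.7-fold range. The order of the mice was WT6, KO1, WT2, WT3, KO3, WT1, KO5, WT5, WT4, KO2, KO6 and KO4, so that the genotypes overlapped, with KO mice the lowest. The median share was 0.677% in WT and 0.287% in KO in PolyA, 0.252% and 0.156% in RiboZero, and 0.272% and 0.130% in NoSelect. The difference in this share was not tested. RiboZero spanned a 22.6-fold range and NoSelect 22.5-fold. The RiboZero and NoSelect libraries of a mouse gave nearly the same share, with a ratio between 0.982 and 1.03 in the 8 mice that had both, while PolyA was higher than RiboZero in 12 of 12 mice, by 1.75-fold to 2.96-fold with a median of 1.99.

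**Figure D1:**
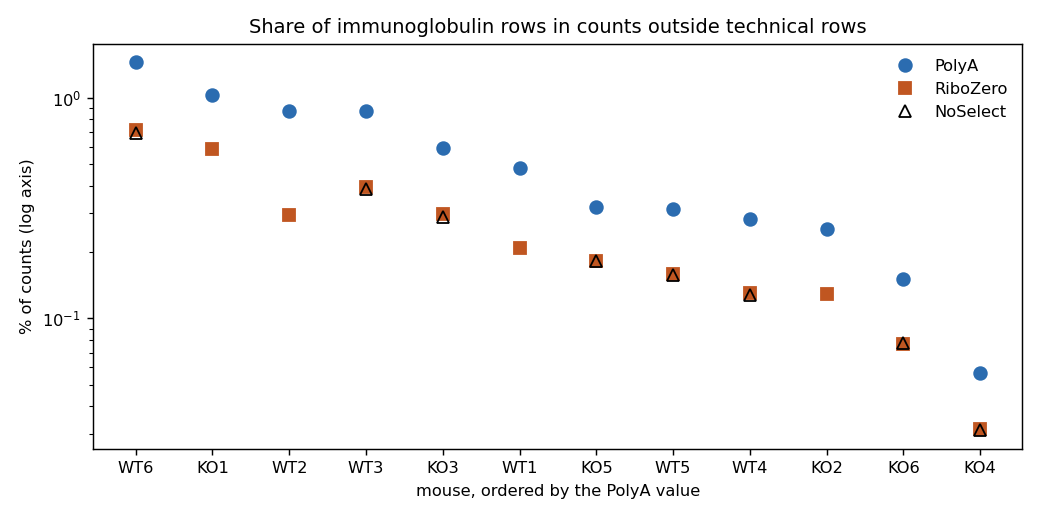
Share of immunoglobulin rows in the counts outside technical rows (percent, log axis) for each mouse, ordered by its PolyA value, with 1 symbol per library. The RiboZero and NoSelect symbols of a mouse nearly coincide, and the PolyA symbols lie above them, from 0.0566% in KO4 to 1.45% in WT6.

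IgA was the main isotype in every library. Igha made up 59.2% (KO2) to 90.8% (WT4) of heavy constant counts in PolyA, with a median of 83.5%. The IgG rows together held 5.06% to 30.2%, led by Ighg2b with a median of 7.35%, and followed by Ighg2c with 4.25%. Ighm held a median of 3.34%, with its highest share in KO4 (13.3%), the mouse with the least immunoglobulin RNA. Ighg3 stayed at or under 0.172%, and Ighe, which did not pass the count rule, at or under 0.0542%. Per kilobase of the shortest or longest annotated transcript, the median Igha share was 84.1% or 78.6%.

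By genotype, the Igha share in PolyA was 82.1% to 90.8% in WT (median 87.3%) and 59.2% to 89.9% in KO (median 78.6%). In RiboZero it was 73.4% to 87.0% in WT and 52.5% to 87.4% in KO, and in NoSelect 74.9% to 87.6% and 64.7% to 87.7%. The genotypes overlapped in each preparation. The Ighg1 share in PolyA was 0.0661% to 0.711% in WT and 0.378% to 4.90% in KO, with KO4 and KO3 within the WT range, and the Ighm share was 1.74% to 4.14% and 1.71% to 13.3%. These shares were not tested.

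Some isotype extremes of a mouse recurred in its other libraries, but not the full order of the mice. The highest Igha share was in WT4 in PolyA (90.8%) and in KO3 in RiboZero (87.4%, against 87.0% in WT4). KO2 had the lowest Igha share in both PolyA (59.2%) and RiboZero (52.5%), and the highest Ighg2b share in both (17.3% and 21.7%). KO4 had the highest Ighm share in all 3 preparations (13.3%, 20.5% and 20.6%). KO5 had the highest Ighg1 share in all 3 (4.90%, 5.77% and 6.36%). The widest exact 95% interval of an Igha share, that of RiboZero KO4, ran from 67.9% to 71.1%, and it overlapped that of RiboZero KO1 (70.9% to 71.6%). The intervals of KO2 for Igha, KO4 for Ighm and KO5 for Ighg1 lay apart from those of all other mice in the preparations named. Such an interval covers counting error only, and none was computed for Ighg2b.

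**Figure D2:**
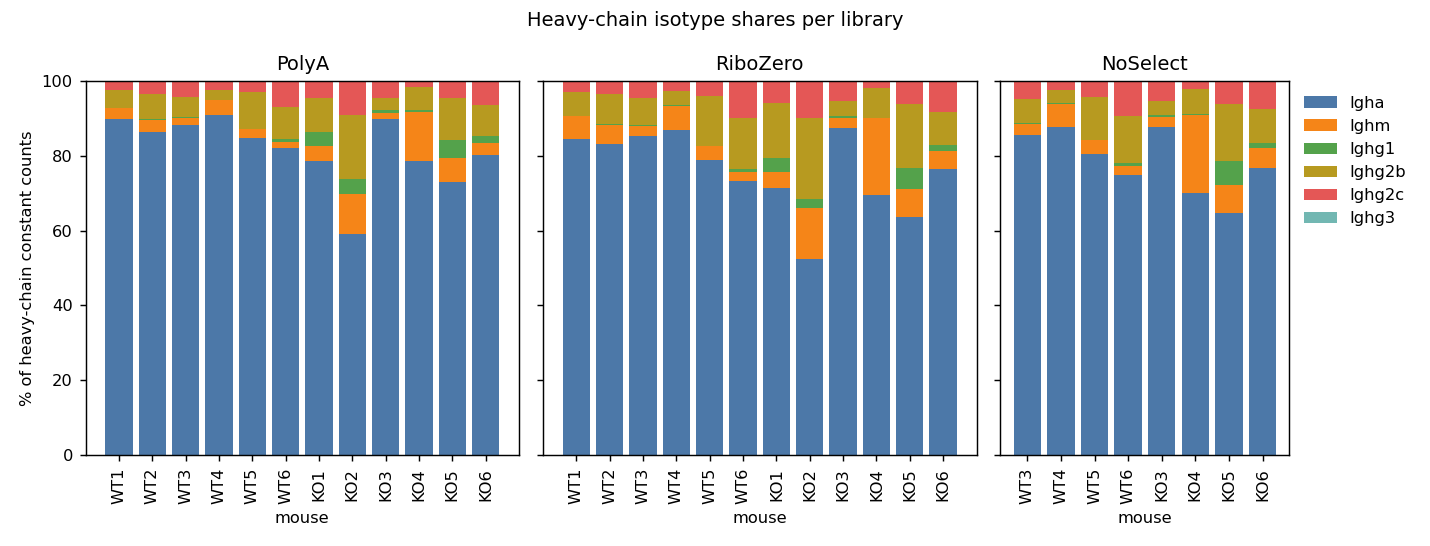
Share of each heavy constant row in the heavy constant counts of a library (percent), with 1 bar per mouse and 1 panel per preparation. Igha fills most of every bar, from 52.5% in RiboZero KO2 to 90.8% in PolyA WT4, and KO4, KO2 and KO5 stand out by their Ighm, Ighg2b and Ighg1 shares.

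Kappa constant counts exceeded those of Iglc2, the lambda constant row analysed, in every library. Iglc2 held a median of 7.49% of the Igkc and Iglc2 counts in PolyA, from 2.20% in WT2 to 21.1% in KO2, and KO2 was also highest in RiboZero (20.7%). Among the lambda segments Iglv1 had the highest mean in PolyA (38.0 CPM), Iglv2 had 21.7 and Iglv3 3.05. Jchain stood at 21.0 to 36.2 counts per 100 Igha counts in PolyA, with KO2 the highest.

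The first question of the design is whether loss of Bmal1 changed these RNAs. Igha in PolyA was 1301 to 6199 CPM in WT, with a median of 2839, and 238 to 3855 in KO, with a median of 941. The ranges overlapped, because KO1 and KO3 lay among the WT mice while KO4, KO6, KO2 and KO5 lay below all of them. The fitted log2 fold change was -0.95 (SE 0.62, n = 6 per genotype, adjusted p = 0.451 by Benjamini-Hochberg, edgeR's quasi-likelihood test). In RiboZero it was -0.75 (SE 0.61, adjusted p = 0.602, edgeR) and in NoSelect -1.26 (SE 0.74, n = 4 per genotype, adjusted p = 0.473, edgeR). Single mice moved these values. Without WT6 they were -0.60, -0.40 and -0.70 in PolyA, RiboZero and NoSelect, without KO1 -1.43 in PolyA and -1.29 in RiboZero, without KO3 -2.03 in NoSelect, and without KO6 -0.77, -0.58 and -1.04. CPM values are scaled by TMM within a preparation and are not comparable between preparations.

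Ighg1, an IgG subclass, went the other way without passing the test. In PolyA it was 1.07 to 53.7 CPM in WT, with a median of 5.61 and the highest value in WT6, and 1.15 to 182 in KO, with a median of 34.3 and the highest values in KO1 and KO5. WT6 lay within the KO range and KO4 among the lowest WT mice. The log2 fold change was 2.14 (SE 1.07, adjusted p = 0.319) in PolyA, 2.10 (SE 1.08, adjusted p = 0.37) in RiboZero and 0.97 (SE 1.34, adjusted p = 0.794) in NoSelect by edgeR. Without KO5 the NoSelect value was -0.75, without KO1 the PolyA and RiboZero values were 1.32 and 1.18, and without WT6 they were 3.55 and 3.75. Without KO6 they were 2.35 and 2.32.

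Ighm did not separate the genotypes. It was 37.7 to 145 CPM in WT and 25.0 to 196 in KO in PolyA, with medians of 70.0 and 79.6, and the log2 fold change was 0.09 (SE 0.47, adjusted p = 0.946, edgeR). Ighg2b and Ighg2c had PolyA values of -0.49 (SE 0.71) and -0.75 (SE 0.78) that rested on WT6, since without that mouse they were 0.10 and 0.10. WT6 held the highest Ighg2b and Ighg2c level of all WT mice in every preparation. Igkc, the kappa constant region, had a log2 fold change of -0.82 (SE 0.62, adjusted p = 0.528, edgeR) in PolyA, Iglc2 -0.58 (SE 0.65) and Jchain -0.63 (SE 0.62), and all 3 were also below 0 in RiboZero and NoSelect without passing the test. Without WT6, Igkc was -0.43 in PolyA, -0.19 in RiboZero and -0.68 in NoSelect, and Jchain -0.34, -0.11 and -0.62. Without KO1, Igkc was -1.43 in PolyA and -1.21 in RiboZero, and Jchain -1.11 and -1.05. Iglc2 ran from -0.90 (without KO2) to -0.33 (without WT3) in PolyA and from -0.91 (without KO2) to -0.27 (without WT6) in RiboZero.

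**Figure D3:**
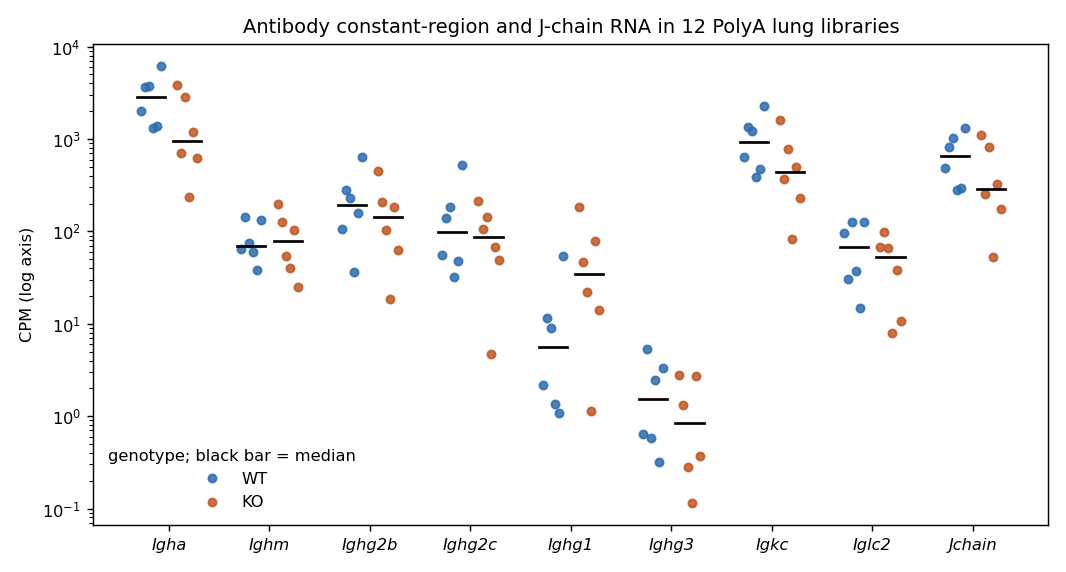
CPM on a log axis of each constant-region row and Jchain in the 12 PolyA libraries, with 1 point per mouse (blue WT, orange KO) and a black bar at the median of 6. The genotypes overlap for every row, and Ighg1 has the medians furthest apart in favour of KO, 5.61 in WT and 34.3 in KO.

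Over all rows kept, 0 of the 140 that could be tested in RiboZero were called in KO against WT by edgeR at an adjusted p under 0.05, where 3.46% of all rows tested were called. At an unadjusted p under 0.05 there were 12, or 8.6%, against 16.4% of all rows, and DESeq2 called 4. In NoSelect 0 of 142 were called (2.17% of all rows), with 23 at an unadjusted p under 0.05 (16.2% against 15.7% of all rows) and 4 by DESeq2. In PolyA 4 of 152 were lower in KO and 0 higher, where 4.03% of all rows were called, 2.41% lower and 1.62% higher, so the 2.63% of these rows was near the background. At an unadjusted p under 0.05 there were 29 in PolyA (19.1% against 18% of all rows), and DESeq2 called 11. Rows whose genotypes did not overlap numbered 0 in PolyA (3.21% of all rows), 0 in RiboZero (2.89%) and 2 in NoSelect (9.51%).

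The median log2 fold change over the rows tested was -1.09 in PolyA, -0.54 in RiboZero and -1.27 in NoSelect, while the median over all rows tested was -0.00 in PolyA, -1.2e-05 in RiboZero and 0.00 in NoSelect. These rows share mice and clones and are not independent. Of the 152 rows tested in PolyA, 130 were below 0, of 140 in RiboZero 104, and of 142 in NoSelect 126. Single mice carried much of this median. Without WT6 it was -0.68, -0.11 and -0.45 in PolyA, RiboZero and NoSelect, without KO1 it was -1.64 in PolyA and -1.19 in RiboZero, and without KO3 it was -2.01 in NoSelect. Without KO4 it was -0.29 in RiboZero, and without KO6 -0.90, -0.33 and -1.07 in PolyA, RiboZero and NoSelect. The median SE of a row was 0.86 in PolyA, against 0.09 over all rows, so only large changes of a single immunoglobulin row could be called.

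The 4 rows called in PolyA were V segments with a higher level in some WT mice than in any KO mouse. These are CPM levels, and the share of these rows in V counts was not tested between genotypes. Ighv2-6 (chr12:113716670-113717103) had 1.42, 18.8, 4.93, 0.241, 1.85 and 3.33 CPM in WT1 to WT6 and at most 0.368 in KO. WT4 lay within the KO range and WT2 far above the other WT mice. Its log2 fold change was -4.44 (SE 0.96, adjusted p = 0.022, edgeR). Igkv4-50 (chr6:69700767-69701287) ran from 0.188 to 38.6 CPM in WT and from 0.142 to 1.11 in KO (log2 -4.23, SE 1.03, adjusted p = 0.038, edgeR), again with WT2 the highest. Ighv1-5 (chr12:114513330-114513807) ran from 0.782 to 6.54 in WT and from 0 to 1.72 in KO (log2 -3.34, SE 0.77, adjusted p = 0.031, edgeR), and Igkv1-88 (chr6:68862265-68863031) from 0.587 to 17.6 in WT and from 0 to 1.16 in KO (log2 -3.27, SE 0.82, adjusted p = 0.044, edgeR). The genotypes overlapped in each of the 4.

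These 4 calls were not stable to single mice. The number called in PolyA was 0 without KO2 or KO4, 1 without WT6, KO3 or KO5, 2 without WT3 or KO6, 3 without WT1, WT4 or WT5, 4 without WT2 and 6 without KO1. Ighv2-6 stayed past the threshold in 10 of 12 such fits, Ighv1-5 in 4, and Igkv4-50 and Igkv1-88 in 3 each. In RiboZero the adjusted p of Igkv4-50, Ighv1-5 and Igkv1-88 was 0.070, 0.072 and 0.072 by edgeR. The number of rows called in RiboZero was 4 without KO1, 2 without WT4 and 1 without WT5, KO2, KO3, KO4, KO5 or KO6. In NoSelect it was 5 without KO3, 3 without WT4 and 1 without WT5.

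Use of V segments marked each mouse. In PolyA the leading Ighv row differed between most mice: Ighv1-64 led in WT1 and KO4, Ighv14-2 in WT3 and KO6, Ighv1-72 in KO1 and KO2, and Ighv14-3, Ighv9-3, Ighv14-4, Ighv1-55, Ighv1-26 and Ighv3-6 in WT2, WT4, WT5, WT6, KO3 and KO5. The leading kappa rows were Igkv4-57-1 in WT1, Igkv3-2 in WT2, Igkv1-110 in WT3, Igkv9-120 in WT5, Igkv5-39 in KO4, Igkv5-43 in KO5, Igkv8-24 in KO6, Igkv8-21 in KO1 and KO2, and Igkv10-96 in WT4, WT6 and KO3. In 9 of 12 mice the same Ighv row led in every library of the mouse, and in 10 of 12 the same Igkv row.

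WT5 had the most uneven use. Ighv14-4, the reference of the sequences printed above, held 21.5%, 23.2% and 21.3% of its Ighv counts in PolyA, RiboZero and NoSelect, and Igkv9-120 held 28.6%, 25.8% and 25.0% of its Igkv counts. In the other 11 PolyA libraries Ighv14-4 ran from 0.0722% to 7.17% of Ighv counts and Igkv9-120 from 1.02% to 6.53% of Igkv counts. The relative Igkv9-124 held 0.127% of Igkv counts in WT5 PolyA. Ighv14-1, the row with the fewest bases differing from Ighv14-4, was also highest in WT5, at 6.41%. Ighv14-3 was highest in WT2 (13.9%) and Ighv14-2 in KO6 (12.4%).

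**Figure D4:**
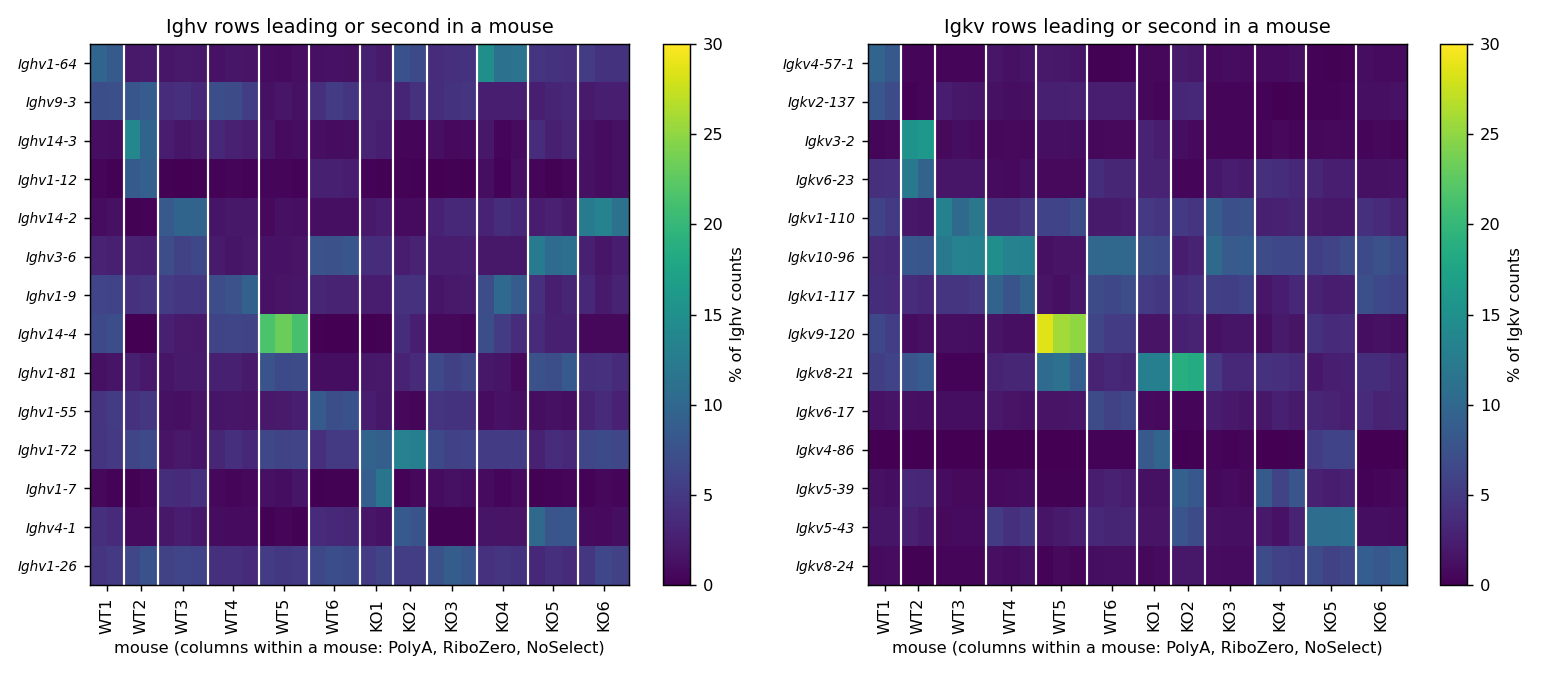
Share of Ighv counts (left) and Igkv counts (right) held by each row that ranked first or second in a PolyA library, with rows as segments, columns as libraries grouped by mouse and colour as percent. Bright cells recur across the columns of 1 mouse, with Igkv9-120 in WT5 the brightest at 25.0% or more.

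The overlap of V use between libraries, the summed smaller share over all rows, was 82.6% to 93.4% between the PolyA and RiboZero libraries of the same mouse for Ighv and 39.0% to 71.0% between different mice. For Igkv the values were 85.5% to 95.4% and 39.5% to 72.4%. In 12 of 12 mice the PolyA library overlapped most with the RiboZero library of its own mouse for both segment types, and in 8 of 8 with its own NoSelect library. Within PolyA, the median Ighv overlap of a pair was 54.8% for WT pairs, 56.8% for KO pairs and 55.6% for mixed pairs, and the ranges overlapped throughout. These are descriptions, since libraries of a mouse share their tissue. KO6 overlapped most with its own mouse in every preparation, its liver-labelled NoSelect library included.

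The effective number of Ighv rows, the inverse Simpson index of their shares, had a PolyA median of 23.9, from 13.2 in WT5 to 31.5 in KO3. For Igkv the median was 23.3, from 9.19 in WT5 to 26.5 in WT6. By genotype, the Ighv range was 13.2 to 30.3 in WT and 18.9 to 31.5 in KO, and the Igkv range 9.19 to 26.5 and 15.4 to 26.2. The genotypes overlapped for both. With every library thinned to the smallest total, 756 Ighv and 1033 Igkv counts, the medians were 23.1 and 22.8.

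By family, the 51 Ighv1 rows, the largest group of the locus, held a median of 57.3% of Ighv counts in PolyA (42.3% to 61.8%), and the 4 Ighv14 rows held 12.4% (2.82% to 30.4%). Along chromosome 12 the use was not restricted to 1 end of the locus. With the 108 Ighv rows split into 3 groups of 36 by position, the group nearest to the constant genes held 26.6% to 45.6% of Ighv counts over the mice, the middle group 19.7% to 36.9% and the far group 26.0% to 42.4%. Among single rows, Ighv1-26 had the highest mean level in PolyA (21.9 CPM), then Ighv1-72 (21.0), Ighv3-6 (18.4), Ighv9-3 (17.6) and Ighv1-55 (15.3). Among kappa rows it was Igkv10-96 (56.7), Igkv8-21 (43.1), Igkv1-110 (35.6), Igkv1-117 (35.0) and Igkv6-23 (29.3). Ighv1-72 shared 98.1% of its 31-base words with other genes, the highest share of all, so its level in particular is uncertain.

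The mouse with the highest use of a row tended to recur across preparations. Of the 74 Ighv rows, 60 were highest, as a share of V counts, in the same mouse in PolyA and RiboZero, and of the 77 Igkv rows 59. Rows outside the rule showed single-mouse use too, and the following were chosen after their values were seen. Ighv15-2 had 250 PolyA and 194 RiboZero counts in KO1 and at most 22 in any other mouse, and Igkv8-18 had 223 and 112 in KO1 and at most 30 elsewhere. Ighv1-49 had 180 and 71 counts in WT6 and at most 7 elsewhere.

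The second question is what the preparation does to these RNAs. PolyA and RiboZero were compared over 12 mice, and a row was called where its adjusted p was under 0.05 and it changed by at least 1 on the log2 scale. By edgeR with genotype as a covariate, 0 of 144 rows were called, where 21.8% of all rows were, 3 had an unadjusted p under 0.05 (82.7% of all rows), and DESeq2 also called 0. The rule chose rows on PolyA counts, so nothing is read from that count. Because the spread between mice was large, the fit with the mouse as a block is given beside it: Igha was higher in PolyA by a log2 of 0.97 (SE 0.45, adjusted p = 0.049, edgeR) without the block and 0.98 (SE 0.04, adjusted p = 1.3e-13, edgeR) with it, and higher in 12 of 12 mice.

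With the mouse as a block, rows differed among themselves by class. Igkc was higher in PolyA by 0.91 (SE 0.04), Iglc2 by 1.00 (SE 0.05), Ighg1 by 0.87 (SE 0.11), Jchain by 0.66 (SE 0.04), Ighg2c by 0.60 (SE 0.08), Ighg2b by 0.42 (SE 0.07) and Ighm by 0.33 (SE 0.06), each with an adjusted p of at most 5.9e-05 by edgeR. Igkv rows had a median of 0.35 and Ighv rows one of -0.13, where the median of all rows was 0.07. At any size of change, 44 of 66 Igkv rows were higher at an adjusted p under 0.05 and 0 lower, against 1 higher and 8 lower of 66 Ighv rows. In that fit 88.1% of all rows passed, and the rule chose rows on PolyA counts. Nothing is therefore read from the numbers of rows, and the sizes describe only the rows kept.

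The shares moved with this. V rows held a median of 21.2% of immunoglobulin counts in PolyA, 29.0% in RiboZero and 29.1% in NoSelect, and were lower in PolyA than in RiboZero in 12 of 12 mice. The Igha share of heavy constant counts was higher in PolyA than in RiboZero in 12 of 12 mice, by 2.46 to 9.28 percentage points, and the Ighm and Ighg2b shares were lower in 12 of 12. PolyA against NoSelect, over 8 mice, gave 0 of 149 rows called (23.6% of all rows; 0 at an unadjusted p under 0.05, where 80.5% of all rows were, and 0 by DESeq2). With the block, where 85.4% of all rows passed at any size, Igha was higher by 0.95 (SE 0.03), Igkc by 0.75 (SE 0.03), Jchain by 0.86 (SE 0.03) and Iglc2 by 1.17 (SE 0.05), and Iglc2 then passed both thresholds (adjusted p = 8.2e-11, edgeR).

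Between RiboZero and NoSelect the median log2 fold change of the immunoglobulin rows was 0.02 with the mouse as a block. Without the block, 0 of 142 rows were called by edgeR (3.81% of all rows), 0 had an unadjusted p under 0.05 (50.1% of all rows) and DESeq2 called 0. The median SE of a row was 0.70 there, against 0.07 over all rows, so these counts cannot show sameness. With the block, 15 rows were higher in RiboZero and 5 lower at an adjusted p under 0.05, where 59.1% of all rows passed at any size. In that fit Igha differed by -0.01 (SE 0.01, adjusted p = 0.441, edgeR) and Ighm by -0.00 (SE 0.03). Small differences passed for Jchain, higher in RiboZero by 0.21 (SE 0.01, adjusted p = 1.6e-08, edgeR) and in 8 of 8 mice, for Ighg2b by 0.14 (SE 0.02) and Iglc2 by 0.14 (SE 0.03), and for Igkc, lower by -0.14 (SE 0.02) in 8 of 8 mice.

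**Figure D5:**
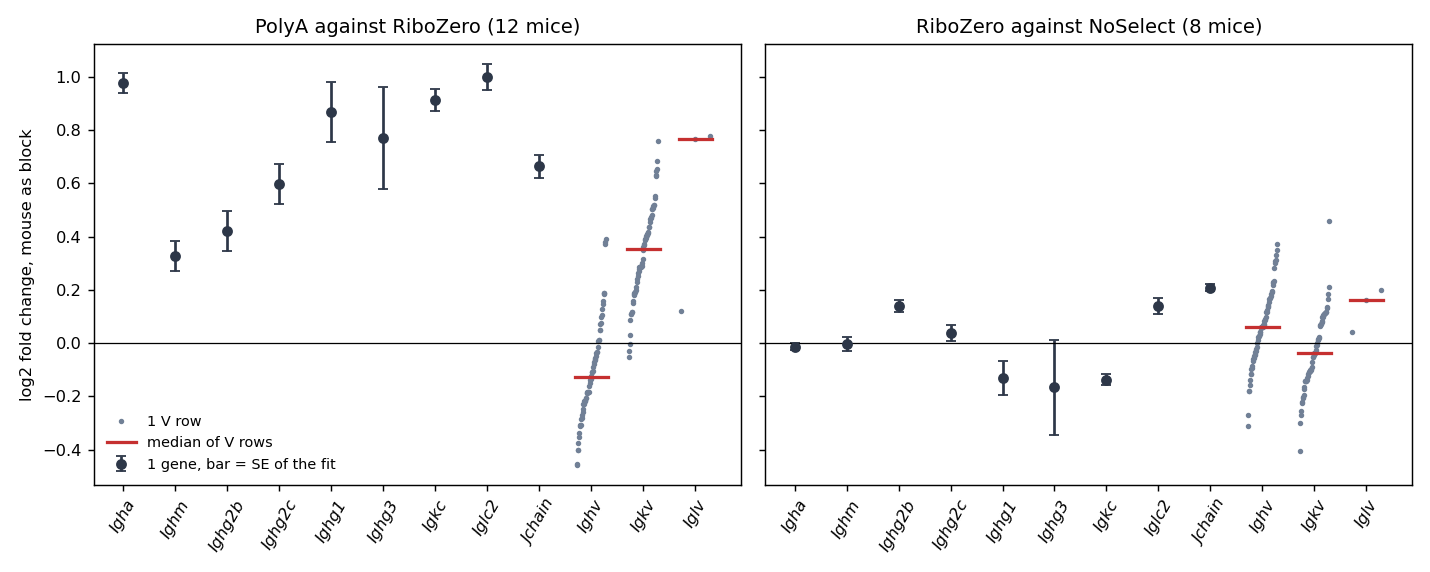
Log2 fold change with the mouse as a block for constant-region rows and Jchain (points with the SE of the fit) and for V rows (small dots, sorted, with a red bar at their median), PolyA against RiboZero on the left and RiboZero against NoSelect on the right. On the left Igha, Igkc and Iglc2 lie near 1 and the Ighv median below 0, and on the right the constant rows lie between -0.17 and 0.21.

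Genes of the cells that make antibodies were read from lists of markers. By edgeR 0 genes of the B cell (18), plasma cell (16), germinal centre (10) and T cell (14) lists were called in any of the 3 KO comparisons. Of all rows tested, 3.46% in RiboZero, 4.03% in PolyA and 2.17% in NoSelect were called, so 0 calls in lists this short say little. Of the 10 germinal centre genes, 8, 9 and 8 were tested. Of the 18 B cell genes, 14 in RiboZero, 13 in PolyA and 2 in NoSelect were above 0, with medians of 0.13, 0.20 and -0.21 on the log2 scale. Of the 16 plasma cell genes 2 were above 0 in each preparation, with medians of -0.17, -0.27 and -0.25. The T cell genes shifted the same way: of 14, 3 in RiboZero, 2 in PolyA and 0 in NoSelect were above 0. Their medians were -0.12, -0.32 and -0.55, so a shift below 0 was not particular to plasma cell genes. The summed level of the B cell list in PolyA was 111 to 407 CPM in WT and 72.1 to 554 in KO, with KO1, WT6 and KO5 the highest mice. Cd79a, a chain of the B cell receptor complex, was 63.1 in WT6, 79.3 in KO1 and 48.8 in KO5 and at most 28.7 in the other 9 mice. The plasma cell list summed to 982 to 1251 in WT and 932 to 1143 in KO, led by Xbp1, Sdc1, Txndc5 and Edem1, which lung cells other than plasma cells also express. Mzb1 and Derl3, plasma cell genes of the secretory pathway named here after their values were seen, were highest in WT6 (46.5 and 15.8) and KO1 (33.6 and 10.2), and both were lowest in KO4 (7.39 and 1.69), then in KO6 and KO2.

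The same 3 mice, WT6, KO1 and KO5, had the highest levels of Glycam1, a marker of high endothelial venules in lymphoid tissue that is also named after its values were seen. It stood at 10.4, 37.6 and 10.9 CPM there and at most 0.998 elsewhere. The summed PolyA level of its whole list, lymph node and follicle stroma, did not single out the same 3 mice. That sum was highest in KO1 (597 CPM) and WT6 (526), while KO5 (463) lay below WT3 (490) and WT2 (475). WT6, KO1 and KO5 also had the highest Ighg1 levels in PolyA (53.7, 182 and 79.2 CPM). Below them the orders differed: KO2, next with 46.3 CPM of Ighg1, had a B cell sum of 98.8, and WT1, next in the B cell list with 198, had 2.19 CPM of Ighg1. The part of these levels in the immunoglobulin values was not tested. Rag1 was at most 0.116 CPM and Rag2 at most 0.0304, so these genes, which cut V segments during B cell development, were near 0. Their whole list, germline recombination (7 genes), summed to 18.9 to 37.1 CPM in WT and 18.3 to 31.2 in KO in PolyA. Its other genes were therefore not all near 0.

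Of the list of antibody transport and Fc receptors, 0 of 9 genes tested were called in each of the 3 KO comparisons by edgeR. Of all rows tested, 3.46% in RiboZero, 4.03% in PolyA and 2.17% in NoSelect were called. Pigr, the receptor that carries IgA and IgM across epithelium, was 212 to 391 CPM in WT and 144 to 502 in KO in PolyA (log2 -0.18, SE 0.29, adjusted p = 0.795, edgeR), and Fcgrt, the IgG recycling receptor, 81.2 to 91.6 and 70.8 to 90.1. Of the 10 lymph node and follicle stroma genes, 4 of 8 tested in RiboZero, 5 of 9 in PolyA and 0 of 8 in NoSelect were above 0, with medians of -0.01, 0.07 and -0.38 on the log2 scale. By edgeR 1 was called in RiboZero, where 3.46% of all rows were, and 0 in PolyA and NoSelect. That gene, Ccl21a, a chemokine that guides lymphocytes, was lower in KO in RiboZero (41.8 to 57.6 against 54.4 to 66.5 CPM, log2 -0.31, SE 0.08, adjusted p = 0.046, edgeR) and was not called in PolyA (log2 -0.32, SE 0.11, adjusted p = 0.143, edgeR) or in NoSelect (log2 -0.29, SE 0.07, adjusted p = 0.073, edgeR).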

How the data were processed

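RNA of 12 mouse lungs was sequenced as 32 libraries, and the values used are estimated counts per gene row that the authors deposited. Salmon 1.4.0, UMI-tools 1.1.1 and the genome build GRCm38 are named per the submitters' processing notes, whose order and settings are not given in the sources used here. The deposited table held 41687 rows, and 12.81% of the estimated counts were not whole (tolerance 1e-06), so they were rounded. Estimated counts divide reads among similar transcripts, which bears on V segments. All pairs of libraries within a group differed by more than sampling noise (chi-square per degree of freedom of 7.02 to 69.9 over 72 pairs).

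Members and lists were chosen with earlier results of these data known. Rows were matched by symbol, and Ighd, Iglc1 and Iglc3 are not analysed here. Comparisons used edgeR 4.0.16 (R 4.3.3): filterByExpr, TMM, quasi-likelihood test, Benjamini-Hochberg adjustment over all rows tested. A call was an adjusted p under 0.05, and between preparations also a change of at least 1 on the log2 scale. CPM came from the same TMM scaling. Genotypes were compared within a preparation, and preparations over the mice they share with genotype as a covariate. The labels name separate mice, so p-values between genotypes measure the spread between animals. Between preparations the same mice recur. There the fit without a block treats libraries of a mouse as independent. The fit with the mouse as a block measures how the difference between preparations varies over mice. Of 200 rows changed by a log2 of 2 in simulated data, 96.5% were recovered in PolyA KO against WT, 97.5% in RiboZero and 96.5% in NoSelect. Those 200 were drawn from all rows tested with enough counts, with the spread of the noisiest rows capped. The median SE in PolyA was 0.86 for immunoglobulin rows and 0.09 over all rows. Recovery of immunoglobulin rows was therefore not measured.

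Libraries of the same mouse were paired across preparations through the animal: their deviations correlated at 0.288 to 0.723, and each was most like its own mouse in 12 of 12, 8 of 8 and 8 of 8 cases. Named are the constant regions, Jchain, the V rows with the highest mean PolyA CPM (5 Ighv, 5 Igkv, 3 Iglv), every V row called between genotypes, the leading V rows of each mouse, and up to 4 genes per marker list by mean level or call. Names outside this rule are marked as chosen after their values were seen. Alternatives were DESeq2 1.42.0, median-of-ratios scaling, other count filters, robust dispersion, removal of 392 technical rows, a replicate block, leaving out each mouse, other count rules, values per kilobase, and V rows thinned by count. Values per kilobase of the longest transcript were added after seeing the data. Intervals are exact binomial with a level of 95% and cover counting error only. Sequences, coordinates and 31-base words are from GENCODE M21.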

Additional observations from a re-analysis of the deposited data

Results flagged for a closer look

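Within groups of 4 or 6 mice, a value was picked out where the highest or lowest mouse stood apart from the nearest other by more than Dixon's 95% limit. Of 108 groups examined 18 gave such a value. For normally distributed values chance would give about 1 in 20, or 5.4. That the values here follow such a distribution was not tested, so 18 is not read as an excess. The values are not independent, since the same mice recur across preparations and rows.

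WT6 stood above the other WT mice for the IgG rows. Its Ighg1 was 53.7 CPM in PolyA, 28.9 in RiboZero and 7.74 in NoSelect, its Ighg2c was 527 CPM in PolyA and 317 in RiboZero, and its Ighg2b was 445 CPM in RiboZero. Among KO mice, KO1 stood apart for Ighg2b in RiboZero (355 CPM), and KO5 for Ighg1 (14.5 CPM) and Ighg3 (0.578 CPM) in NoSelect.

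WT5 stood apart for V use. Its leading Igkv row held 28.6% of Igkv counts in PolyA, its leading Ighv row held 23.2% of Ighv counts in RiboZero and 21.3% in NoSelect, and its effective number of Ighv rows in NoSelect was 13.8. In KO3 the leading Ighv row held 8.08% in NoSelect, the lowest of the KO mice there.

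KO2 stood apart for light chains, with a lambda share of 21.1% in PolyA and 20.7% in RiboZero and an effective number of Igkv rows of 15.4 in PolyA. In KO4 the V rows held 27.6% of immunoglobulin counts in NoSelect, the lowest of the KO mice there.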

How the results depend on the processing

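For constant regions and Jchain, 428 of 441 refits of KO against WT and 426 of 435 refits of the preparations kept direction and side of the threshold. No row of the first set passed the threshold in any refit. The reversals were of values near 0 or resting on 1 mouse. Leaving out 1 mouse at a time gave ranges of -0.25 to 0.27 (RiboZero) and -0.28 to 0.31 (PolyA) for Ighm, -0.99 to 0.55 and -1.07 to 0.10 for Ighg2b, -1.09 to 0.53 and -1.14 to 0.10 for Ighg2c, and -0.75 to 2.996 for Ighg1 in NoSelect. For RiboZero against NoSelect it gave -0.016 to 0.0017 for Igha and -0.015 to 0.0077 for Ighm.

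DESeq2 called 985, 1355 and 874 rows in RiboZero, PolyA and NoSelect, against 579, 694 and 372 by edgeR, and 4, 11 and 4 immunoglobulin rows, against 0, 4 and 0. Without a filter on low counts, 1 immunoglobulin row was called in RiboZero and 1 in PolyA against RiboZero, and all rows called numbered 6552 (PolyA against RiboZero, 3761 with the filter), 6627 (PolyA against NoSelect, 4158) and 1012 (RiboZero against NoSelect, 650). With at least 10 counts in every library, 0 immunoglobulin rows were called in PolyA and 1 in NoSelect, and 311 rows in all between RiboZero and NoSelect. Robust dispersion gave 2 immunoglobulin rows in PolyA, and removal of technical rows gave 1 in NoSelect. Leaving out 1 mouse at a time gave 380 to 644 rows in RiboZero, 442 to 1066 in PolyA and 148 to 472 in NoSelect. Immunoglobulin rows then numbered 0 to 4, 0 to 6 and 0 to 5, and 0 to 1 in PolyA against RiboZero (1 without KO1) and 0 to 1 in PolyA against NoSelect (1 without WT5). The cause of these differences was not tested.

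Equal numbers in WT and KO mark no shared animal, and same-numbered mice deviated with correlations of -0.128 to 0.230, each best with its own number in 2 cases per preparation. The replicate block over those numbers gave 372 rows and 1 immunoglobulin row in RiboZero, 617 and 6 in PolyA, and 103 and 4 in NoSelect, and Ighm then was -0.064 in RiboZero and -0.067 in PolyA. With the mouse as a replicate block, 1 immunoglobulin row was called in PolyA against NoSelect. Depth limits single V rows: in NoSelect KO4 only 756 Ighv counts were available, and its leading row held 11.4% of them (exact 95% interval 9.20% to 13.9%).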

Other observations

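Use of the kappa rows was also read by position along chromosome 6. With the rows split into 3 groups of 34, the group with the lowest coordinates (chr6:67555497-68769103) held a median of 40.9% of Igkv counts in PolyA, from 23.0% to 58.9% over the mice. The middle group held a median of 24.8% (19.0% to 33.4%) and the last 32.4% (20.9% to 54.4%). The ranges overlapped, and the difference by position was not tested. The number of rows that passed the count rule was 26, 26 and 25 of 34, so the groups held similar numbers of rows in use. These are shares of counts and depend on how reads of similar segments were divided.

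Among the kappa families, Igkv4, with 26 rows, held a median of 14.7% of Igkv counts in PolyA (9.79% to 21.6%). Igkv9 held a median of 2.62% with a highest value of 28.8%, the mouse WT5. Igkv8 reached 22.1% and had a median of 10.6%. Ighv3 held a median of 4.95% of Ighv counts with a highest value of 20.4%.

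Further rows outside the count rule, chosen after their values were seen, had a PolyA count in 1 mouse above those in all the others. Igkv14-130 had 105 PolyA counts in KO1 and at most 19 in any other mouse. Ighv1-56 had 93 in WT2 and at most 14 elsewhere, and Ighv3-5 had 81 in WT2 and at most 16 elsewhere. Ighe, the IgE constant region, had 58 in KO1 and 30 in the next mouse.

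Jchain per 100 Igha counts was lower in PolyA than in RiboZero in 12 of 12 mice, by a median of -6.40, and higher in RiboZero than in NoSelect in 8 of 8. The lambda share was higher in PolyA than in NoSelect in 8 of 8 mice and higher in RiboZero than in NoSelect in 8 of 8.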
